A study of Mus musculus with 12 samples.

Results

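The genes of the axon guidance families, that is the semaphorins with their plexin and neuropilin receptors, the ephrins with their Eph receptors, the Slits with the Robo receptors, and the netrins with the Unc5 receptors, were examined in RNA-seq data of mouse cells with reduced *Srsf3*. They were taken from the gene table by symbol, as whole families. Of 51490 rows in the table, 68 matched, and 67 of these had a count in at least 1 sample, whereas *Epha6* had none. Among the 67 genes, 57 passed the filter on low counts and were tested along with 15037 genes in all. The other 10, *Epha5*, *Epha8*, *Epha10*, *Ephb1*, *Ntn5*, *Plxnb3*, *Robo3*, *Robo4*, *Slit1*, and *Unc5a*, had between 0 and 9 counts in every sample. The cells were immortalized mouse embryonic palatal mesenchyme (iMEPM) cells, a line derived from the mesenchyme of the secondary palate of a male *Cdkn2a*-/- embryo, so that every sample lacks the cell cycle inhibitor locus *Cdkn2a*. A scramble shRNA or an shRNA against *Srsf3*, which encodes an RNA-binding protein of the SR family that takes part in splicing, had been stably integrated by lentiviral transduction, followed by puromycin selection and sorting for GFP. After serum starvation, each line was collected either without ligand (-PDGF-AA) or after 1 hr with 10 ng/mL of PDGF-AA, which binds the receptor PDGFRα (+PDGF-AA), and each of the 4 conditions has 3 samples. There is 1 transduced line per shRNA, so that an effect of the shRNA and a difference between these lines cannot be told apart.

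Guidance cues were named for the steering of growth cones but act on many migrating and contacting cells, including neural crest cells and the mesenchyme that they form in the face. Class 3 semaphorins are secreted and bind neuropilins, which pass the signal through plexins, whereas the other vertebrate semaphorins are held at the membrane and mostly bind plexins directly. Ephrins are bound to the cell surface and signal to Eph receptor tyrosine kinases of neighboring cells, and in the reverse direction. Slits are secreted and bind Robo receptors, and netrins attract through Dcc and neogenin and repel through Unc5 receptors. Ephrin, semaphorin, and Slit signaling all change the cytoskeleton through small GTPases and kinases, and ephrin-B signaling is required for normal growth of the palatal shelves.

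Total counts per sample were between 30958966 and 76123359. With PDGF-AA, the shSrsf3 samples (30958966 to 37334733 counts) were all shallower than the scramble samples (57313132 to 65707963). *Srsf3* was at 199 to 231 CPM (counts per 1e6 counts of the scaled library) in scramble samples and at 161 to 169.5 CPM in shSrsf3 samples, with no overlap. Of 12 markers of palatal mesenchyme, 11 were expressed at a mean of at least 50 counts, and *Tbx22* was at 0. Their sum was 44326 to 46941 CPM in scramble and 39202 to 42481 CPM in shSrsf3 samples, with no overlap, and 6 of the 11 tested were lower by adjusted p in both comparisons between the lines (*Pdgfra*, *Prrx1*, *Prrx2*, *Msx1*, *Col1a2*, and *Fn1*) and 1 higher (*Vim*). The 8 epithelial markers summed to 2.19 to 3.37 CPM in scramble samples, mostly from *Cdh1*. In shSrsf3 samples they summed to 0.591 to 1.13 CPM, and *Cdh1* was at 0.376 to 0.676 CPM. For the 7 endothelial markers the sum was 30.6 to 34.6 CPM in scramble samples and 19.2 to 22.96 CPM in shSrsf3 samples, mostly from *Tek*, whereas *Cdh5* (log2 2.33 without and 2.82 with ligand) and *Kdr* (1.24 and 0.91) were higher in shSrsf3 samples by edgeR adjusted p, and *Tie1* and *Cldn5* were at 0. The 8 markers of neurons and glia summed to 29.2 to 32.4 CPM and 20.7 to 25.3 CPM, mostly from *Tubb3*, and *Sox10* and *Elavl4* were at 0. The sums of 6 blood markers (1.23 to 2.34 CPM, with *Adgre1*, *Cd3e*, and *Hbb-bt* at 0) overlapped between the lines in each treatment. Those of 6 muscle markers, with *Myod1* and *Ckm* at 0, were 23.98 to 25.1 CPM in scramble and 29.95 to 31.2 CPM in shSrsf3 samples without ligand, mostly from *Acta1*, and overlapped with ligand. In bulk RNA, fewer cells of a type and less RNA per cell cannot be told apart, and the part of these marker differences in the results was not tested.

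To compare levels between genes, CPM values were divided by the length in kilobases (kb) of the longest annotated coding transcript. In scramble -PDGF-AA samples, the receptor gene *Plxnb2* had the highest level of all guidance genes, at 84.0 ± 4.04 CPM per kb (SD, n = 3). *Sema3c*, a secreted semaphorin, followed with 64.0 ± 2.83 CPM per kb, and the samples of these genes did not overlap. *Slit2* (37.3 ± 1.59 CPM per kb) and the ephrin gene *Efnb2* (37.1 ± 2.74) came next and did not differ beyond their spread, and the same was true of *Plxna1* (27.5 ± 1.34) and *Sema3a* (27.2 ± 0.961). The most abundant receptor of each other family was *Nrp2* at 26.4 ± 0.559 CPM per kb, *Ephb4* at 23.9 ± 0.224, *Epha2* at 21.8 ± 0.848, *Unc5b* at 11.9 ± 0.486, and *Robo1* at 4.04 ± 0.0797. *Ephb4* and *Ephb3* (23.3 ± 3.29 CPM per kb) lay within 1 SD of each other. The remaining leading ligands were *Efna5* at 9.58 ± 0.828 CPM per kb and *Ntn1* at 9.57 ± 0.441, and *Ntn4* (8.34 ± 1.39) was within its own SD of *Ntn1*. With the median instead of the longest coding transcript, the leading gene was the same in 9 of the 11 families, but *Slit3* came first of all, at 116 CPM per kb against 33.1 with the longest, and *Plxnb2* second (85.3). Among the EphB genes *Ephb3* then stood above *Ephb4* (26.9 against 24.9 CPM per kb).

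**Figure D1:**
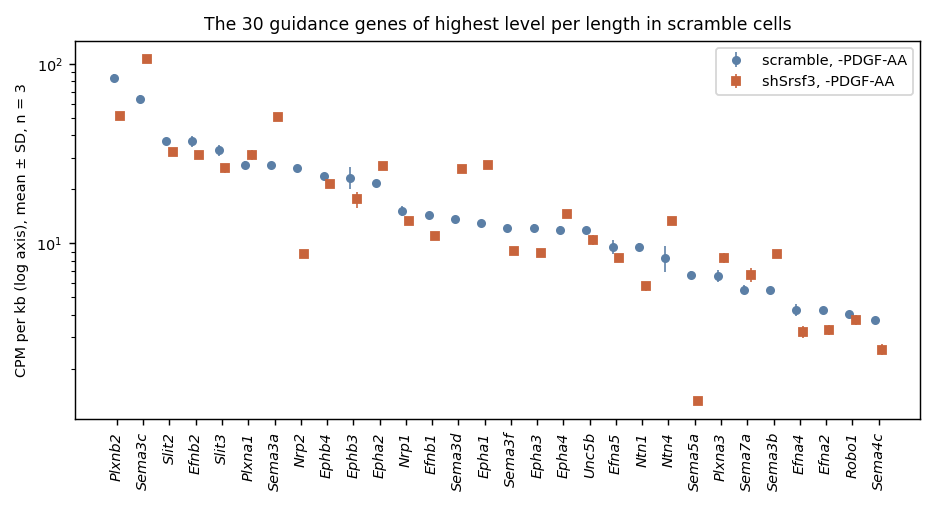
Level of the 30 guidance genes with the highest CPM per kb in scramble -PDGF-AA samples, on a log axis, for scramble (circles) and shSrsf3 (squares) -PDGF-AA samples, as mean with SD over 3 samples. *Plxnb2* leads in scramble samples at 84.0 CPM per kb and *Sema3c* in shSrsf3 samples at 106, and *Sema5a* has the widest gap between the lines (6.69 against 1.32).

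Summed over a family, levels differed between the lines without ligand, as a description with no test. Class 3 semaphorins (7 genes) were at 125 ± 3.42 CPM per kb (SD, n = 3) in scramble and 205 ± 3.68 in shSrsf3 -PDGF-AA samples. The 9 plexins were at 125 ± 5.85 and 95.9 ± 4.99 CPM per kb, and the 2 neuropilins at 41.6 ± 0.382 and 22.2 ± 0.398. In scramble samples the sums of class 3 semaphorins and plexins were thus level, and in shSrsf3 samples the class 3 sum was higher. These sums do not match ligands to their own receptors. *Plxnb2*, a receptor of class 4 semaphorins, made up 84.0 CPM per kb of the plexin sum in scramble samples. The 13 other semaphorins were at 21.3 ± 0.256 CPM per kb in scramble and 16.1 ± 1.03 in shSrsf3 samples. The EphA sum was 60.2 ± 1.46 in scramble and 79.4 ± 2.90 CPM per kb in shSrsf3 samples, whereas the ephrin-A sum was 21.1 ± 1.04 and 16.4 ± 0.289. The EphB sum was 52.9 ± 3.299 and 44.9 ± 2.63 CPM per kb and the ephrin-B sum 51.7 ± 3.32 and 42.5 ± 1.05. Slits were at 70.3 ± 3.57 and 58.7 ± 2.99 CPM per kb and Robo receptors at 5.86 ± 0.0985 and 4.66 ± 0.307. For the families named so far the samples of the lines did not overlap. Netrins (19.2 ± 1.11 and 20.5 ± 0.570 CPM per kb) and Unc5 receptors (14.9 ± 0.552 and 14.3 ± 0.848) overlapped between the lines.

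The question of the comparison between the lines was which genes differ when Srsf3 is reduced, before and after ligand. A gene was counted as differentially expressed (DE) where edgeR's quasi-likelihood test gave an adjusted p of up to 0.05 (Benjamini-Hochberg, over the 15037 genes) and the fold change, up or down, reached 2. In the absence of PDGF-AA, 3 guidance genes were DE and higher in shSrsf3 samples (*Epha1*, *Sema3e*, and *Sema6b*) against 2.99% of all genes tested. Another 6 were DE and lower (*Nrp2*, *Plxnc1*, *Robo2*, *Sema4f*, *Sema5a*, and *Sema5b*) against 2.76% of all genes. In the presence of PDGF-AA the same 9 were DE, in the same directions, along with *Sema6d*, which was lower. That made 3 higher genes against 2.85% of all genes and 7 lower genes against 2.57%. Of the 10, 4 were low, with a mean of 45.8 counts per sample for *Sema4f*, 19.4 for *Sema5b*, 18.4 for *Sema6b*, and 10.1 for *Sema6d*.

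Most changes were under 2-fold. By adjusted p alone, 17 guidance genes were higher in shSrsf3 -PDGF-AA samples, where 22.2% of all genes were, and 29 were lower, where 23.7% of all genes were. With ligand, 17 were higher (20.3% of all genes) and 30 lower (20.7%). The samples of the lines did not overlap for 49 of the 57 genes without ligand (53.3% of all genes) and for 53 with ligand (52.6%). Over the 57 genes the median was -0.20 without and -0.30 with ligand on the log2 scale, against -0.02 and -0.01 over all genes tested. The comparisons without and with PDGF-AA use separate samples of the same lines. In them all 57 guidance genes had the same sign, and 42 passed adjusted p in both. These counts were not computed over all genes, so they do not set the guidance genes apart. There were 6 genes that passed in neither comparison by edgeR, namely *Ntn3*, *Plxna4*, *Sema3g*, *Sema4a*, *Sema7a*, and *Unc5d*. By DESeq2, *Sema7a* passed in both. When every library was thinned to the smallest total, 8 guidance genes were DE without and 9 with ligand, and the share over all genes was not computed.

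**Figure D2:**
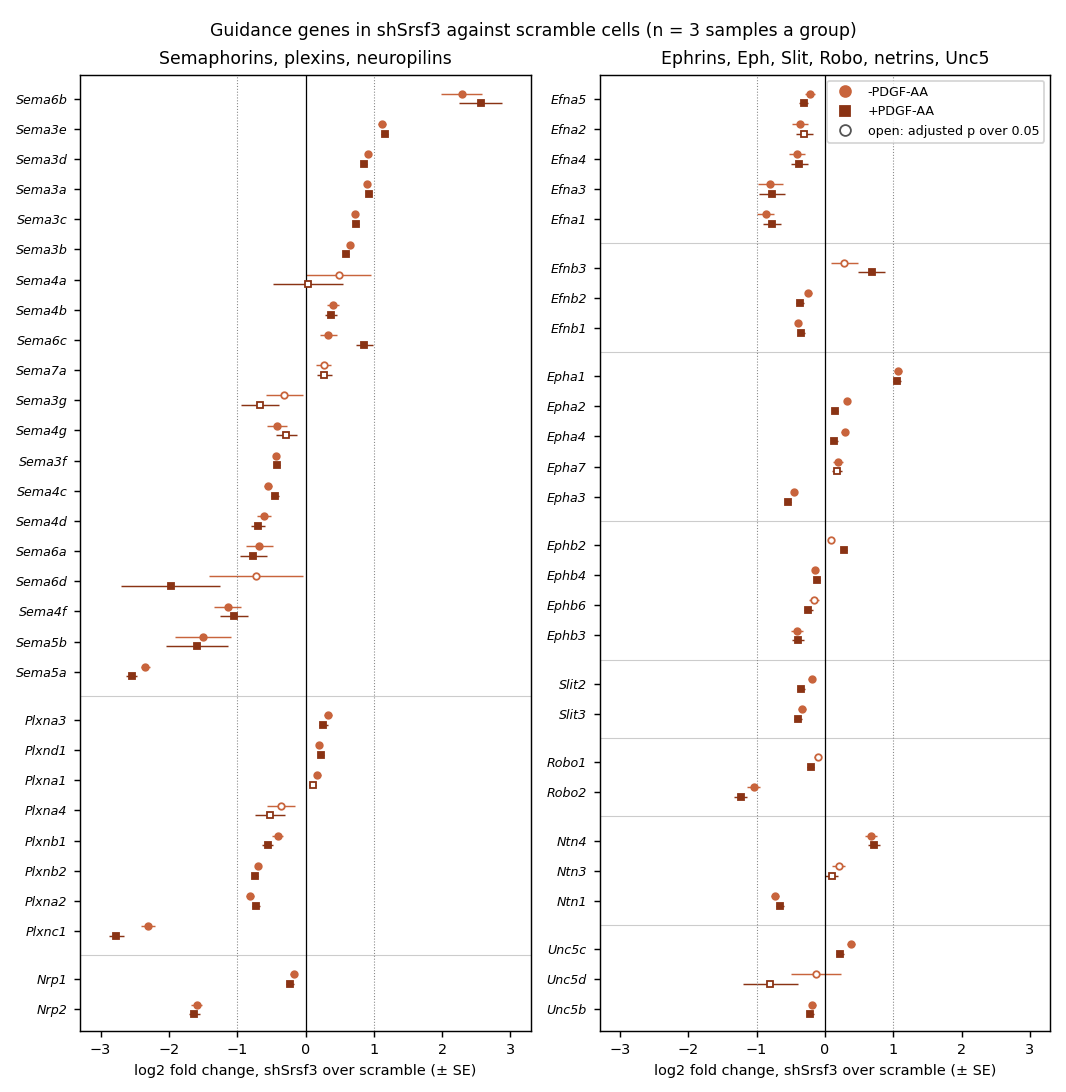
Log2 fold change of shSrsf3 over scramble for the 57 guidance genes tested, without (circles) and with PDGF-AA (squares), with its standard error, open where the adjusted p is over 0.05, and dotted lines at a 2-fold change. The points run from -2.77 (*Plxnc1*, +PDGF-AA) to 2.56 (*Sema6b*, +PDGF-AA), and both points of each gene lie on the same side of 0.

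Class 3 semaphorins, the secreted ligands, mostly rose. Of the 7, *Sema3a*, *Sema3b*, *Sema3c*, *Sema3d*, and *Sema3e* were higher in shSrsf3 samples by adjusted p in both comparisons, *Sema3f* was lower in both, and *Sema3g* passed in neither. *Sema3e*, which differs from the others in that it binds Plxnd1 without a neuropilin, had 14.8, 16.2 and 14.7 CPM in scramble -PDGF-AA samples and 31.4, 33.0 and 34.8 CPM in shSrsf3 -PDGF-AA samples. In the +PDGF-AA samples it had 16.3, 16.0 and 17.1 CPM in scramble and 35.1, 36.1 and 39.1 CPM in shSrsf3 cells. Every shSrsf3 sample was thus well above every scramble sample. The change was 2.17-fold without ligand (log2 1.12 ± 0.06 SE, edgeR adjusted p = 3.69e-09) and 2.23-fold with ligand (log2 1.16 ± 0.06, adjusted p = 2.81e-09).

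*Sema3c*, a cue for neural crest cells that enter the outflow tract of the heart, was the ligand of highest level per longest transcript, and by the median transcript it stood below *Slit3* and level with *Efnb2*. It had 395, 382 and 362 CPM in scramble and 619.8, 625 and 643 CPM in shSrsf3 -PDGF-AA samples. With ligand the values were 388, 383 and 406 CPM in scramble and 676, 643 and 645 CPM in shSrsf3 samples. The lines did not overlap, and *Sema3c* was 1.66-fold higher without (log2 0.73 ± 0.04 SE, edgeR adjusted p = 7.77e-09) and 1.67-fold higher with ligand (adjusted p = 7.27e-09). *Sema3a*, a repellent that acts through Nrp1, rose from 203 ± 7.16 CPM (SD, n = 3) to 378 ± 5.52 CPM without ligand, by a log2 fold change of 0.90 ± 0.03 (edgeR adjusted p = 3.19e-10). *Sema3d* rose from 91.4 ± 1.74 to 172 ± 4.05 CPM, a log2 fold change of 0.91 ± 0.04 (adjusted p = 2.39e-09). With ligand the log2 fold changes of *Sema3a* and *Sema3d* were 0.93 and 0.85. These 3 genes therefore rose by less than 2-fold, and *Sema3a* and *Sema3d* came closer to it than *Sema3c*.

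*Sema3a*, *Sema3c*, *Sema3d*, and *Sema3e* are neighbors on chromosome 5, all on the plus strand, within 5.503 Mb (chr5:12433124-17935648 on GRCm39). In order they are *Sema3d* (chr5:12433124-12638929), *Sema3a* (chr5:13175288-13653578), *Sema3e* (chr5:14075290-14306719), and *Sema3c* (chr5:17779219-17935648). The other 6 tested genes in that stretch had a median of 0.01 (log2) without and 0.45 with ligand. Among them *Hgf*, which encodes a growth factor, had -0.02 and -0.17 and did not pass (adjusted p = 0.927 and 0.213), and *Cacna2d1*, a calcium channel subunit gene, was slightly lower (-0.19 and -0.22, edgeR adjusted p = 0.00137 and 4.30e-04). *Gm43719*, which begins just beyond the end of *Sema3a*, rose by 1.20 and 1.24 (adjusted p = 6.20e-08 and 5.44e-08). *Gm42675*, inside the span of *Sema3a* and at a mean of 9.58 counts, had 1.99 and 1.03 and passed without ligand (edgeR adjusted p = 0.0317 and 0.25). *Gm10481*, at 11.7 counts, had -0.55 and 1.08 and *Gm10108* had 0.03 and -0.13, and neither passed. The 34 tested genes within 5 Mb on either side had a median of 0.08 and 0.09. Of these, 8 were higher and 6 lower by adjusted p without ligand.

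**Figure D3:**
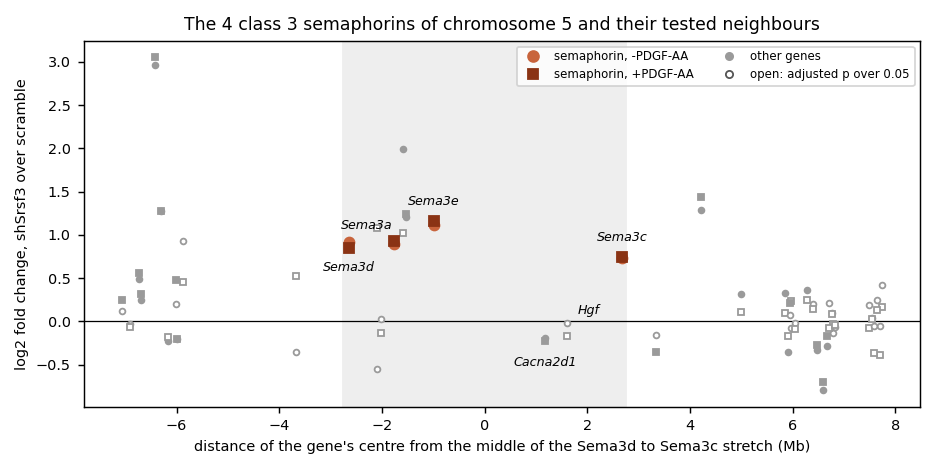
Log2 fold change of shSrsf3 over scramble for each tested gene against the distance in Mb of its centre from the middle of the stretch from *Sema3d* to *Sema3c* (shaded), without (circles) and with PDGF-AA (squares), open where the adjusted p is over 0.05. The 4 semaphorins (colored) sit between 0.73 and 1.16, and *Cacna2d1* and *Hgf* in the same stretch lie between -0.22 and -0.02.

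The promoter sequences of these 4 neighbors are shown because the genes moved together. Each runs from 250 bases before to 50 bases after a transcription start given by RefSeq (GRCm38.p6), and was placed on GRCm39 by an exact match. Capitals mark matches on either strand to the TATA box (TATAAA), to the CCAAT box, to the GC box, a site of Sp factors that reads GGGCGG, or to the AP-1 site, which reads TGANTCA. A match of the other strand appears as its complement in reverse. Matches to different motifs did not overlap in the windows shown. These occur in 13.6%, 37.4%, 35.7%, and 7.81% of the 32851 RefSeq mouse promoters of that length.
Sema3d, chr5:12432883-12433182 (plus strand): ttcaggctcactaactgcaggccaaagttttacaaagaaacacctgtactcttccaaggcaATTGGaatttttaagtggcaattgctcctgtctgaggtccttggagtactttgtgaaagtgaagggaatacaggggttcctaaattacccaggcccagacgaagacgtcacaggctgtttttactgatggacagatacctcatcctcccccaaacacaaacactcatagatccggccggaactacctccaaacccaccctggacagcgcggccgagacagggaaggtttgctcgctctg
Sema3a, chr5:13446501-13446800 (plus strand): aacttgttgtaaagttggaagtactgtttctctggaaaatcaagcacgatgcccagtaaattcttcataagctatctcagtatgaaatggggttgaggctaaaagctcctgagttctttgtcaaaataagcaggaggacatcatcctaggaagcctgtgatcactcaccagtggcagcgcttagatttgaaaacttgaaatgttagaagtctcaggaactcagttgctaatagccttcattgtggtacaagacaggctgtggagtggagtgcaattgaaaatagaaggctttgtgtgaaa
Sema3e, chr5:14075040-14075339 (plus strand): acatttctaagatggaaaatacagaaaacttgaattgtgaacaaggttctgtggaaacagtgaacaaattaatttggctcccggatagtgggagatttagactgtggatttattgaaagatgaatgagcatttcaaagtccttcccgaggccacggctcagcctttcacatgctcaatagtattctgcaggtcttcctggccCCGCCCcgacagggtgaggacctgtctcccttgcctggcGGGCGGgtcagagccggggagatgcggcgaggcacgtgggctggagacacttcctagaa
Sema3c, chr5:17779564-17779863 (plus strand): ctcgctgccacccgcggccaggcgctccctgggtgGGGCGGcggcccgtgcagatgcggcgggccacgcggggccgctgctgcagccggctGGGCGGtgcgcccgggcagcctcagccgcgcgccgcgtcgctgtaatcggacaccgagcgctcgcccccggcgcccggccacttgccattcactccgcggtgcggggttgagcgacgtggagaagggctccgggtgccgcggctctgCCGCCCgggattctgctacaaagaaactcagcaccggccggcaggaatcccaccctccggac
The 4 sequences differ in base composition. They hold 8 CG dinucleotides for *Sema3d*, 2 for *Sema3a*, 11 for *Sema3e*, and 42 for *Sema3c*, against a median of 7 over all promoters. GC boxes were found in *Sema3e* (2) and *Sema3c* (3), a CCAAT box in *Sema3d*, and no match in *Sema3a*. The *Sema3a* and *Sema3c* windows lie wholly inside the spans that GENCODE gives these genes. That of *Sema3a* begins at 13446501, far downstream of the start of its span at 13175288. Whether these windows are the promoters used in the cells was not tested.

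On chromosome 9, *Sema3b* (chr9:107474872-107486456) and *Sema3f* (chr9:107558698-107587674), both on the minus strand within 0.113 Mb, moved in opposite directions. *Sema3b* rose from 23.04 ± 0.691 to 36.3 ± 1.74 CPM without ligand (log2 0.66 ± 0.04 SE, edgeR adjusted p = 7.43e-08). *Sema3f*, a repellent with a preference for Nrp2, fell from 50.0 ± 1.92 to 37.2 ± 1.39 CPM (log2 -0.43 ± 0.04, adjusted p = 3.80e-06). With ligand the log2 fold changes were 0.59 and -0.42. *Sema3g*, at a mean of 28.3 counts, had -0.31 and -0.67 (adjusted p = 0.37 and 0.0708).

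Among the membrane-bound semaphorins, *Sema5a* showed the widest change of any guidance gene with at least 50 counts without ligand. It encodes a transmembrane semaphorin with thrombospondin repeats and lies at chr15:32244919-32696487. In scramble samples it had 71.5, 69.9 and 76.7 CPM without and 70.9, 79.0 and 70.2 CPM with ligand. In shSrsf3 samples it had 14.1, 14.5 and 14.4 CPM without and 14.1, 12.5 and 10.9 CPM with ligand. The highest shSrsf3 sample was thus far below the lowest scramble sample. *Sema5a* was 5.07-fold lower without (log2 -2.34 ± 0.07 SE, edgeR adjusted p = 5.36e-11) and 5.84-fold lower with PDGF-AA (log2 -2.55 ± 0.08, adjusted p = 4.22e-11). Its paralog *Sema5b* was low and also fell, with 16, 31 and 35 counts in scramble and 12, 17 and 7 counts in shSrsf3 -PDGF-AA samples, of which the deeper shSrsf3 samples are the first and second. With PDGF-AA it had 37, 35 and 25 counts in scramble and 9, 8 and 1 in shSrsf3 samples, and the log2 fold changes were -1.50 ± 0.41 and -1.59 ± 0.45 (edgeR adjusted p = 0.00859 and 0.0124). The 3 libraries of lowest mapping rate were all scramble, and without them replicate 3 was the only scramble -PDGF-AA sample. The log2 fold change of *Sema5b* without ligand was then -1.53.

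Class 4 semaphorins are ligands of plexin-B receptors. Of 6 tested, *Sema4c* (log2 -0.55 without and -0.44 with ligand), *Sema4d* (-0.61 and -0.70), and *Sema4f* (-1.14 and -1.05) were lower by adjusted p in both comparisons, and *Sema4b* (0.41 and 0.37) was higher in both. *Sema4g* passed only without ligand (-0.42, edgeR adjusted p = 0.0346, against -0.28 and 0.163 with ligand), and the difference between these changes did not pass (edgeR adjusted p = 0.925). *Sema4a*, at a mean of 10.8 counts, passed in neither. For *Sema4f* the counts were 48, 62 and 69 in scramble and 50, 36 and 19 in shSrsf3 -PDGF-AA samples, and 68, 60 and 82 and 21, 15 and 20 with ligand. Its fold stood close to the threshold. With ligand it was under 2-fold without the third scramble (log2 -0.98) or the second shSrsf3 +PDGF-AA sample (-0.94). Without ligand it was under 2-fold (-0.99) when the 3 libraries of lowest mapping rate were left out. That fit has replicate 3 as its only scramble -PDGF-AA sample.

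Class 6 semaphorins bind plexin-A receptors. *Sema6b* rose from 4, 7 and 9 counts in scramble to 48, 47 and 28 counts in shSrsf3 -PDGF-AA samples, and had 8, 5 and 5 and 18, 24 and 18 counts with ligand. Low as it was, no shSrsf3 sample overlapped a scramble sample on the CPM scale, and the log2 fold changes were 2.28 ± 0.30 SE and 2.56 ± 0.32 (edgeR adjusted p = 3.53e-05 and 2.43e-05). *Sema6c* was higher as well (0.33 without and 0.86 with ligand), and *Sema6a* was lower (-0.68 and -0.76). Without ligand, *Sema6c* did not pass at equal depth, or when any -PDGF-AA sample but the third scramble sample was left out. *Sema6d* had 29, 15 and 21 counts in scramble and 4, 1 and 4 in shSrsf3 +PDGF-AA samples. Its log2 ratio was -1.97 ± 0.72 at an edgeR adjusted p of 0.0427, close to the threshold. It did not pass when any +PDGF-AA sample but the second scramble sample, or the first shSrsf3 -PDGF-AA sample, was left out (adjusted p between 0.0552 and 0.151), nor with a replicate block (0.0583) or at equal depth (0.0851). *Sema7a*, a ligand anchored in the membrane by a lipid that binds Plxnc1 and integrins, had 0.27 and 0.28 and did not pass by edgeR (adjusted p = 0.0617 and 0.0548). By DESeq2 it passed in both comparisons (adjusted p = 0.0354 and 0.0316).

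Of the 8 plexin genes tested, which encode the signaling receptors of the semaphorins, *Plxnb1*, *Plxnb2*, *Plxna2*, and *Plxnc1* were lower in shSrsf3 samples in both comparisons, and *Plxna3* and *Plxnd1* were higher in both. *Plxna1* was higher by adjusted p without ligand only (log2 0.17 and 0.11, edgeR adjusted p = 0.0118 and 0.107), and *Plxna4* passed in neither. *Plxnc1* (chr10:94626728-94780877), the receptor of Sema7a, had 13.7, 12.4 and 13.5 CPM in scramble and 2.69, 2.78 and 2.52 CPM in shSrsf3 -PDGF-AA samples. After ligand, it had 12.5, 15.8 and 13.7 CPM in scramble and 2.06, 2.32 and 1.77 CPM in shSrsf3 samples. Its samples separated completely by line in both. *Plxnc1* was 4.93-fold lower without (log2 -2.30 ± 0.10 SE, edgeR adjusted p = 1.05e-09) and 6.81-fold lower with PDGF-AA (log2 -2.77 ± 0.11, adjusted p = 6.36e-10).

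*Plxnb2*, a receptor of several class 4 semaphorins and the guidance receptor of highest level, had 555, 541 and 593 CPM in scramble and 345, 332 and 362 CPM in shSrsf3 -PDGF-AA samples. With ligand the values were 603, 578 and 595 CPM and 359, 357 and 345 CPM. It was lower in every shSrsf3 sample, by 1.63-fold without (log2 -0.70 ± 0.04 SE, edgeR adjusted p = 2.24e-08) and 1.67-fold with ligand (adjusted p = 1.49e-08). *Plxna2* fell by a log2 fold change of -0.81 ± 0.05 without ligand (adjusted p = 6.09e-08), and *Plxnb1*, a receptor of Sema4d, by -0.41 ± 0.08 (adjusted p = 0.00116). The log2 fold changes of those that rose were smaller, 0.33 for *Plxna3* and 0.19 for *Plxnd1*.

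The neuropilins, coreceptors of the class 3 semaphorins that also bind vascular endothelial growth factors, were both lower. *Nrp2* (chr1:62742444-62857854) had 187, 184 and 179 CPM in scramble and 59.9, 60.6 and 62.1 CPM in shSrsf3 -PDGF-AA samples. Upon stimulation it had 177, 206 and 179 CPM and 62.6, 67.0 and 52.4 CPM. No sample of 1 line reached the range of the other. The fall was 3.02-fold without (log2 -1.59 ± 0.08 SE, edgeR adjusted p = 2.40e-09) and 3.09-fold with ligand (log2 -1.63 ± 0.08, adjusted p = 2.41e-09). *Nrp1* changed far less, with log2 fold changes of -0.18 ± 0.05 and -0.23 ± 0.05 (edgeR adjusted p = 0.0144 and 0.00358). *Nrp2* therefore stood above *Nrp1* per length in scramble -PDGF-AA samples (26.4 against 15.1 CPM per kb) and below it in shSrsf3 samples (8.76 against 13.4 CPM per kb).

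**Figure D4:**
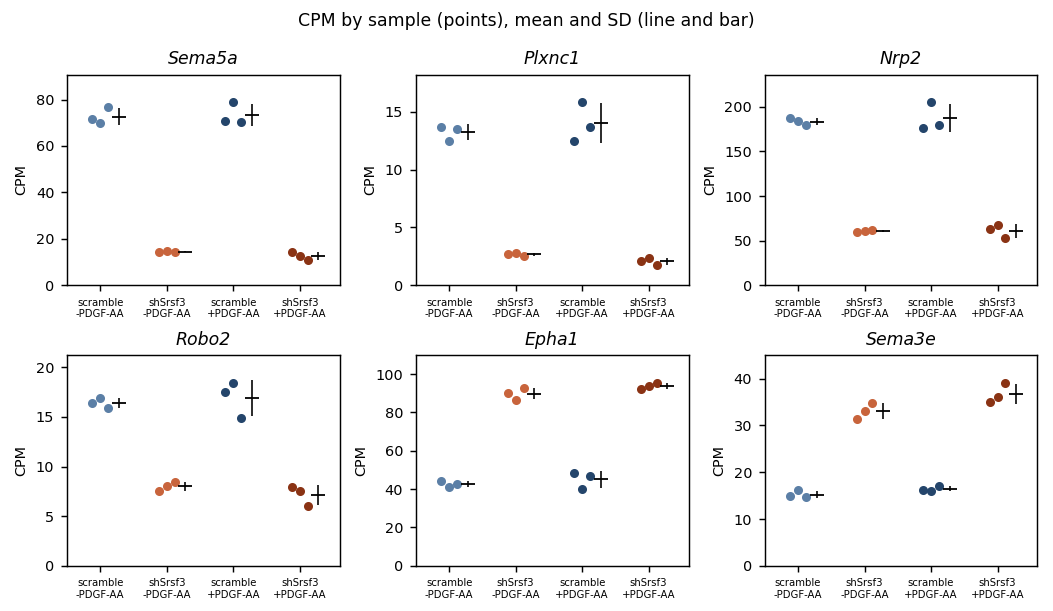
CPM of the 6 DE guidance genes with a mean of at least 50 counts, by sample (points) in the 4 conditions, with mean and SD of 3 samples beside them, each axis from 0. For *Sema5a*, *Plxnc1*, *Nrp2*, and *Robo2* all shSrsf3 samples lie below all scramble samples, and for *Epha1* and *Sema3e* above them.

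The promoters of *Sema5a*, *Plxnc1*, and *Nrp2*, the 3 guidance genes with at least 50 counts that fell the most, are given in the same way as those above, with the motif matches in capitals.
Sema5a, chr15:32244709-32245008 (plus strand): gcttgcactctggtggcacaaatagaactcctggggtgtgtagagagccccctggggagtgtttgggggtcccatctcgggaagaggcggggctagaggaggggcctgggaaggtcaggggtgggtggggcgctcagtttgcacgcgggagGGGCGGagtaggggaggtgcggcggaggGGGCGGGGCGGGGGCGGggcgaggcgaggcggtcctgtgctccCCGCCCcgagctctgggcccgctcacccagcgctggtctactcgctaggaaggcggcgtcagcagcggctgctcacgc
Plxnc1, chr10:94780658-94780957 (minus strand): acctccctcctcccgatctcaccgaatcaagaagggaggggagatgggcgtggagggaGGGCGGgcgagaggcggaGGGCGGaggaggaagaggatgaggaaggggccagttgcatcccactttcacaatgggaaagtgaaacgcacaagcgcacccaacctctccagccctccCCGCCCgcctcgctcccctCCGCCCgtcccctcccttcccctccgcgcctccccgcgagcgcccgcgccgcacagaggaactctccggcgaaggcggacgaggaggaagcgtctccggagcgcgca
Nrp2, chr1:62742226-62742525 (plus strand): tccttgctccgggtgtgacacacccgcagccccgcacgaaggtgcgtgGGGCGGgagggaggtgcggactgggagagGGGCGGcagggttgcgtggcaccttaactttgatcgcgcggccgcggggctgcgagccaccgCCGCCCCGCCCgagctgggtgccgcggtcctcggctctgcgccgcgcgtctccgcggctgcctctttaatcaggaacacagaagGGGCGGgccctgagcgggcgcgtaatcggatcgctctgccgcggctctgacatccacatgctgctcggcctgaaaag
The windows hold 23 CG dinucleotides in *Sema5a*, 30 in *Plxnc1*, and 37 in *Nrp2*, all above the median of 7. They have 5, 4, and 5 GC boxes, some of which overlap one another, and no match to the other 3 motifs.

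The ephrins were mostly lower in shSrsf3 cells. Without ligand, 7 of 8 were lower by adjusted p (23.7% of all genes) and none was higher (22.2%), and with ligand 6 were lower (20.7%) and 1, *Efnb3*, was higher (20.3%). The calls of *Efna2*, *Efna4*, and *Efna5* without ligand were each lost when some single sample was left out. With ligand, *Efna4* and *Efnb3* lost theirs at equal depth and when some single sample was left out, and *Efnb3* also without the filter. *Efna2* with ligand passed when some single sample was left out, without the filter, and with a replicate block. No ephrin was DE, by edgeR or by DESeq2, since every change was under 2-fold. At an unadjusted p of under 0.05 there were 7 without and 8 with ligand by either tool. In edgeR, 52.8% and 48.6% of all genes were under that p. Among the ephrin-A genes, whose products are lipid-anchored ligands of EphA receptors, the widest log2 fold changes were those of *Efna1* (-0.87 ± 0.13 SE without and -0.78 ± 0.13 with ligand) and *Efna3* (-0.80 ± 0.18 and -0.77 ± 0.19). These lie beside *Efna4* (-0.41 and -0.38) within 0.0663 Mb of chromosome 3 (chr3:89179037-89245373), and the 3 neighbors were all lower. *Efna2* had -0.37 and -0.30 and passed without ligand (edgeR adjusted p = 0.0197 and 0.062). *Efna5*, the ephrin-A of highest level, had 54.6, 45.9 and 50.6 CPM in scramble and 42.8, 43.7 and 43.6 CPM in shSrsf3 -PDGF-AA samples. With ligand it had 52.4, 53.7 and 55.2 CPM and 46.5, 45.0 and 38.1 CPM. The samples were separate by a narrow margin, with log2 fold changes of -0.22 ± 0.07 and -0.31 ± 0.07 (edgeR adjusted p = 0.0214 and 0.00276).

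Ephrin-B proteins span the membrane and bind EphB receptors. *Efnb2*, the most abundant ephrin gene, had 196, 190.0 and 170.2 CPM in scramble and 151, 158 and 160.5 CPM in shSrsf3 -PDGF-AA samples, and 196, 202 and 207 CPM and 165, 157 and 147 CPM with ligand. Each shSrsf3 sample was below each scramble sample of the same treatment. The log2 fold changes were -0.24 ± 0.05 SE without and -0.37 ± 0.05 with ligand (edgeR adjusted p = 0.00253 and 1.19e-04). Without the 3 libraries of lowest mapping rate, which leaves replicate 3 as the only scramble -PDGF-AA sample, *Efnb2* had -0.12 without ligand. *Efnb1*, mutated in craniofrontonasal syndrome, fell by -0.39 ± 0.05 and -0.34 ± 0.05 on the log2 scale (adjusted p = 2.58e-05 and 1.01e-04). *Efnb3*, at a mean of 42.7 counts, had 0.28 ± 0.20 without (adjusted p = 0.264) and 0.68 ± 0.20 with ligand (adjusted p = 0.0138).

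Of the EphA receptor tyrosine kinases, *Epha1*, *Epha2*, and *Epha4* were higher in shSrsf3 samples by adjusted p in both comparisons, *Epha7* only without ligand, and *Epha3* was lower in both. The changes of *Epha4* with ligand (log2 0.13) and of *Epha7* without ligand (0.19) were small. Both calls were lost without the filter, with a replicate block, and without some single samples. *Epha7* also did not pass by DESeq2 or with only the conditions compared. *Epha2* with ligand did not pass without some single samples. *Epha1* (chr6:42335406-42350208) had 44.1, 41.3 and 42.7 CPM in scramble and 90.02, 86.6 and 92.7 CPM in shSrsf3 -PDGF-AA samples. With ligand it had 48.2, 40.0 and 47.0 CPM and 92.2, 94.0 and 95.4 CPM. The lowest shSrsf3 sample was far above the highest scramble sample. *Epha1* rose 2.10-fold without (log2 1.07 ± 0.06 SE, edgeR adjusted p = 1.12e-08) and 2.08-fold with PDGF-AA (log2 1.06 ± 0.06, adjusted p = 1.45e-08). In the +PDGF-AA comparison, its fold dropped just under 2 (log2 0.98) without the second scramble +PDGF-AA sample, the lowest of the group, and also without the 3 libraries of lowest mapping rate. Its gene shares 5.21% of its sequences of 31 bases with other genes and overlaps *Zyx* on the opposite strand, and the libraries were stranded. Per length, *Epha1* was below *Epha2* in scramble -PDGF-AA samples (13.0 against 21.8 CPM per kb) and level with it in shSrsf3 samples (27.3 ± 0.926 and 27.2 ± 1.16 CPM per kb, within 1 SD). *Epha3* fell by -0.46 ± 0.04 without and -0.54 ± 0.04 with ligand on the log2 scale (adjusted p = 1.79e-06 and 3.80e-07).

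The 4 EphB receptor genes tested had log2 fold changes between -0.40 and 0.28. *Ephb4*, the venous partner of ephrin-B2, led the EphB genes by the longest transcript and stood below *Ephb3* by the median. It had 106, 104 and 105 CPM in scramble and 93.4, 91.7 and 98.4 CPM in shSrsf3 -PDGF-AA samples, and 100.1, 100.1 and 101 CPM and 94.7, 94.7 and 88.0 CPM with ligand. It was lower in every shSrsf3 sample, by -0.15 ± 0.04 SE and -0.12 ± 0.04 on the log2 scale (edgeR adjusted p = 0.00688 and 0.0278). *Ephb3* was lower by -0.40 and -0.40, past adjusted p in both. *Ephb6*, which lacks kinase activity, was lower (-0.24) and *Ephb2* higher (0.28) by adjusted p with ligand only.

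Both Slit genes that were tested were lower. *Slit2* had 388, 356 and 376 CPM in scramble and 317, 317 and 344 CPM in shSrsf3 -PDGF-AA samples, and 409, 409 and 414 CPM and 343, 333 and 292 CPM with ligand. The samples did not overlap, and the log2 fold changes were -0.20 ± 0.06 SE and -0.35 ± 0.06 (edgeR adjusted p = 0.0104 and 2.06e-04). *Slit3* had -0.34 ± 0.06 and -0.39 ± 0.06 (adjusted p = 3.46e-04 and 1.16e-04).

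The Slit receptor gene *Robo2* (chr16:73688727-75244270) had 16.4, 16.9 and 15.9 CPM in scramble and 7.51, 8.02 and 8.48 CPM in shSrsf3 -PDGF-AA samples. With ligand it had 17.5, 18.4 and 14.9 CPM and 7.96, 7.53 and 6.02 CPM. Its levels in shSrsf3 samples were under all scramble levels. The gene was 2.06-fold lower without (log2 -1.04 ± 0.09 SE, edgeR adjusted p = 1.05e-06) and 2.352-fold lower with ligand (log2 -1.23 ± 0.10, adjusted p = 3.55e-07). Without ligand the change was close to the threshold and fell just short of 2-fold without the first shSrsf3 -PDGF-AA sample (log2 -0.99) and at equal depth. *Robo1*, its neighbor on chromosome 16 (chr16:72105194-72844378), had 36.3, 37.6 and 37.6 CPM in scramble and 32.4, 34.5 and 37.0 CPM in shSrsf3 -PDGF-AA samples, which overlapped. With ligand it had 39.1, 40.3 and 40.0 CPM and 35.5, 36.1 and 31.6 CPM. The log2 fold changes of *Robo1* were -0.11 ± 0.05 (adjusted p = 0.121) and -0.21 ± 0.05 (adjusted p = 0.00742).

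Netrins, secreted proteins related to laminins, moved in both directions. *Ntn1*, needed for commissural axons, had 55.3, 60.0 and 60.0 CPM in scramble and 36.1, 32.9 and 36.8 CPM in shSrsf3 -PDGF-AA samples, and 58.3, 60.5 and 56.2 CPM and 37.5, 34.7 and 38.6 CPM with ligand. It was lower in all shSrsf3 samples, by 1.66-fold without (log2 -0.73 ± 0.05 SE, edgeR adjusted p = 1.73e-07) and 1.58-fold with ligand (adjusted p = 6.09e-07). *Ntn4*, which binds laminin in basement membranes, was higher, at 31.5 ± 5.24 CPM (SD, n = 3) in scramble and 50.0 ± 1.21 CPM in shSrsf3 -PDGF-AA samples (log2 0.67 ± 0.09, edgeR adjusted p = 3.83e-05), and by 0.72 ± 0.09 with ligand. Per length, *Ntn4* thus stood above *Ntn1* in shSrsf3 -PDGF-AA samples (13.2 ± 0.321 against 5.77 ± 0.340 CPM per kb). *Ntn3* had 0.20 and 0.10 and passed in neither comparison.

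Unc5 receptors mediate repulsion by netrins. *Unc5b*, the most abundant of them, had 72.3, 66.9 and 71.4 CPM in scramble and 60.8, 58.4 and 66.1 CPM in shSrsf3 -PDGF-AA samples, and 76.2, 75.6 and 75.5 CPM and 67.8, 61.6 and 66.0 CPM with ligand. Its samples were lower in shSrsf3 cells in both treatments, with log2 fold changes of -0.19 ± 0.05 SE and -0.22 ± 0.05 (edgeR adjusted p = 0.00941 and 0.00398). *Unc5c* was higher (0.38 and 0.22), and *Unc5d*, at a mean of 12.6 counts, passed in neither (-0.13 and -0.80).

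PDGF-AA for 1 hr changed few guidance genes. None of the 57 was DE upon ligand stimulation by edgeR, against 0.200% of all genes in scramble cells and 0.0399% in shSrsf3 cells, and none by DESeq2. At an unadjusted p of under 0.05 there were 13 in scramble (17.6% of all genes) and 11 in shSrsf3 cells (9.44%). By adjusted p alone, 5 passed in scramble cells (4.04% of all genes), of which *Epha2*, *Epha4*, *Sema7a*, and *Unc5c* rose and *Sema6c* fell, and 1, *Epha2*, passed in shSrsf3 cells (0.565% of all genes). The comparisons upon ligand share their samples with those between the lines. The calls of *Epha2* and *Sema6c* in scramble cells held under all 20 alternatives tried, whereas those of *Epha4*, *Sema7a*, and *Unc5c* did not hold without some single samples. In scramble cells, *Epha4* and *Unc5c* did not pass with only the conditions compared. *Epha4* also did not pass with a replicate block (edgeR adjusted p = 0.0507), nor did *Unc5c* at equal depth. Without the 3 libraries of lowest mapping rate, replicate 3 was the only scramble -PDGF-AA sample. The log2 fold changes of *Sema7a* and *Unc5c* in scramble cells were then 0.54 and 0.26. There were 2 to 6 calls in scramble cells and 0 or 1 in shSrsf3 cells when 1 sample was left out.

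*Epha2*, a receptor of ephrin-A1 that also signals without ligand, rose in both lines. The scramble samples had 88.4, 81.9 and 86.4 CPM without and 118, 112 and 115 CPM with PDGF-AA. In shSrsf3 cells the values were 106, 102 and 111 CPM and 130.3, 122.9 and 128 CPM. Neither line had an overlap between treatments, and *Epha2* was also higher in shSrsf3 than in scramble samples at each treatment. The rise upon ligand was 1.34-fold in scramble (log2 0.42 ± 0.04 SE, edgeR adjusted p = 9.38e-05) and 1.19-fold in shSrsf3 cells (log2 0.25 ± 0.04, adjusted p = 0.0151). The difference between these effects did not pass (log2 -0.17 ± 0.06, adjusted p = 0.847).

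*Epha4*, a receptor that binds ephrins of both classes, had 79.7, 75.0 and 71.2 CPM without and 85.6, 85.5 and 90.2 CPM with ligand in scramble cells. In shSrsf3 cells it had 90.9, 88.5 and 97.0 CPM and 97.9, 97.8 and 91.1 CPM. The scramble samples did not overlap between treatments, and the shSrsf3 samples did. Its log2 fold change upon PDGF-AA was 0.21 ± 0.05 SE in scramble (edgeR adjusted p = 0.0338) and 0.05 ± 0.05 in shSrsf3 cells (adjusted p = 0.826), and the difference between the lines did not pass (adjusted p = 0.874).

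*Sema7a* had 19.6, 18 and 17.5 CPM in scramble cells without and 25.8, 23.1 and 24.98 CPM with PDGF-AA. In shSrsf3 cells it had 21.7, 20.4 and 24.4 CPM and 26.1, 26.8 and 36.8 CPM, of which the last sample was the highest of all 12. The treatments did not overlap in either line. The log2 fold changes were 0.43 ± 0.11 SE in scramble (edgeR adjusted p = 0.0448) and 0.44 ± 0.11 in shSrsf3 cells, where it did not pass (adjusted p = 0.119, and past the threshold by DESeq2). Without that highest sample the value in shSrsf3 cells was 0.26 (adjusted p = 0.289).

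*Unc5c* had 29.1, 27.8 and 28.7 CPM without and 33.2, 31.5 and 35.6 CPM with PDGF-AA in scramble cells. In shSrsf3 cells it had 37.4, 35.2 and 38.9 CPM and 42.4, 37.1 and 37.4 CPM. Its scramble samples moved apart by a small step, and its shSrsf3 samples overlapped. The log2 fold change was 0.23 ± 0.06 SE in scramble (edgeR adjusted p = 0.0493, at the edge of the threshold) and 0.07 ± 0.06 in shSrsf3 cells (adjusted p = 0.795).

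*Sema6c*, a transmembrane semaphorin, was the guidance gene that fell past adjusted p upon ligand. It had 4.29, 3.93 and 4.54 CPM without and 2.87, 2.27 and 2.33 CPM with PDGF-AA in scramble cells. In shSrsf3 cells it had 5.52, 5.33 and 5.26 CPM and 5.24, 4.62 and 3.70 CPM. All +PDGF-AA samples were below the -PDGF-AA samples of their line. The fall was 1.71-fold in scramble cells (log2 -0.77 ± 0.13 SE, edgeR adjusted p = 0.00399) and 1.19-fold in shSrsf3 cells (log2 -0.25 ± 0.12, adjusted p = 0.579). The difference between the lines was 0.53 ± 0.18 on the log2 scale and did not pass (adjusted p = 0.806).

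**Figure D5:**
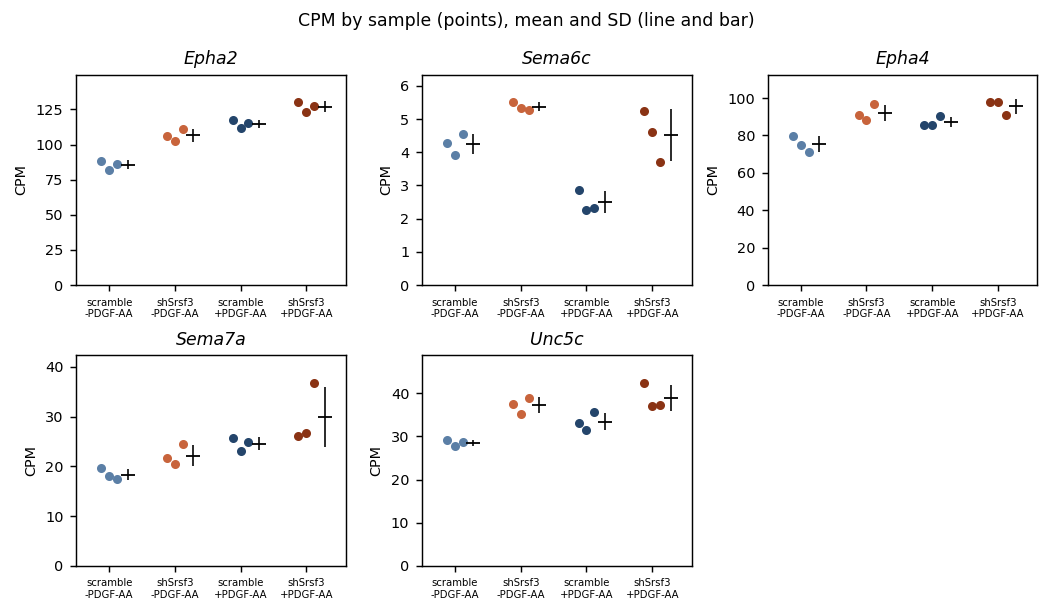
CPM of the 5 guidance genes past adjusted p upon PDGF-AA in either line, by sample (points) in the 4 conditions, with mean and SD of 3 samples beside them, each axis from 0. In scramble cells *Epha2*, *Epha4*, *Sema7a*, and *Unc5c* are higher with ligand and *Sema6c* is lower, by log2 fold changes of 0.23 to 0.43 and of -0.77.

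As to whether the response to PDGF-AA differed between the lines, tested as an interaction, no guidance gene passed an adjusted p of 0.05 in edgeR, against 0.0133% of all genes, and none did in DESeq2. At an unadjusted p of under 0.05 in edgeR there were 5, or 8.77%, against 5.54% of all genes. They were *Ephb2* (0.19), *Plxnc1* (-0.47), *Sema6c* (0.53), *Epha2* (-0.17), and *Epha4* (-0.16), with edgeR adjusted p between 0.674 and 0.874. The same interaction tests whether the difference between the lines changed with ligand, so for *Plxna1*, *Epha7*, *Ephb2*, *Ephb6*, and the others that passed in 1 of the comparisons between the lines, the change itself did not pass.

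Genes that act with the guidance families were examined as a list of 95 coreceptors and intracellular effectors, of which 85 were tested. By adjusted p alone, 21 were higher (22.2% of all genes) and 25 lower (23.7%) in shSrsf3 samples without ligand, and 20 (20.3%) and 26 (20.7%) with ligand. Their median log2 fold changes of -0.01 and -0.05 stood nearer to those of all genes than did the guidance genes themselves. In each comparison 5 were DE, or 5.88%, against 5.75% of all genes without and 5.42% with ligand, which is near the background. Of these, 3 were higher and 2 lower without ligand, and 2 and 3 with ligand. *Lrrc4c*, a synaptic adhesion protein that binds netrin-G1, was at 0.779 to 0.966 CPM in scramble and 2.55 to 2.92 CPM in shSrsf3 -PDGF-AA samples, and at 0.634 to 0.664 and 2.57 to 3.66 CPM with ligand. Its log2 fold changes were 1.60 ± 0.16 SE and 2.25 ± 0.17 (edgeR adjusted p = 3.51e-06 and 1.81e-07). *Dapk1*, a kinase of cell death that can be bound by Unc5 receptors, was at 11.6 to 13.8 CPM in scramble and 3.95 to 4.36 CPM in shSrsf3 -PDGF-AA samples, and at 12.1 to 13.6 and 3.77 to 4.44 CPM with ligand. It was lower by -1.65 ± 0.08 and -1.64 ± 0.09 on the log2 scale (adjusted p = 4.53e-09 and 9.68e-09). The samples of the lines did not overlap for either gene. *Grip1* (higher) and *Dpysl4* (lower) in both comparisons, *Kdr* (higher) without ligand, and *Ablim3* (lower) with ligand were also DE, at means under 50 counts.

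Upon PDGF-AA in scramble cells, 3 of the 85 passed adjusted p, or 3.53% against 4.04% of all genes, and none was DE, by edgeR or DESeq2. *Rnd1*, a small GTPase that binds plexins, rose by 0.29 ± 0.06 SE on the log2 scale (edgeR adjusted p = 0.01), and *Abl2*, a kinase of the cytoskeleton, by 0.38 ± 0.05 (adjusted p = 8.67e-04). *Dpysl2*, a mediator of the response to Sema3a, fell by -0.24 ± 0.04 (adjusted p = 0.00644). In shSrsf3 cells none of the 85 passed in edgeR and 2 did in DESeq2. In edgeR 6 had an unadjusted p of under 0.05, or 7.06% against 9.44% of all genes.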

How the data were processed

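The authors sequenced mRNA of scramble and shSrsf3 iMEPM cells, with 3 biological replicates in each of 4 conditions. Reads were trimmed with BBDuk and quantified with Salmon (v1.4.0) against GENCODE on GRCm39, and tximport gave the deposited expected counts per gene, which are not scaled to library size. How tximport scaled them is not given in the sources used here. No column was left out.

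The expected counts were rounded, filtered with filterByExpr of edgeR 4.0.16 (minimum count 10), and normalized by TMM, and CPM values use these factors. edgeR's quasi-likelihood test was fitted to all 12 samples in 1 model with a mean per condition (R 4.3.3), and the script was tested on simulated data. A standard error (SE) was derived from the log2 fold change and its F statistic. DESeq2 1.42.0 was an alternative. An exact permutation test of 3 samples against 3 cannot go below p = 0.1. The guidance genes, the partner list, and the markers were chosen with earlier results of these data known. Values in every sample were given for DE genes with a mean of at least 50 counts, genes past adjusted p upon PDGF-AA, and the gene of highest level per length in each family. DE genes under that mean were named with their counts, other genes by fold change or count. Positions, transcript lengths, and overlapping genes came from GENCODE M39 on GRCm39, a later release than that of the authors, and promoters from RefSeq, which matched 59 of the 68 genes. Reads of paralogs could be split between genes, but no guidance gene shared more than 5.21% of its 31-base sequences with another gene.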

Additional observations from a re-analysis of the deposited data

How the results depend on the processing

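No fold change past its threshold changed sign under any alternative. The alternatives were DESeq2 size factors, the DESeq2 test, no filter on low counts, a minimum count of 30, each sample left out in turn, the 3 libraries of lowest mapping rate left out, only the 2 conditions compared, a replicate block, and libraries thinned to equal depth. Without ligand, 9 guidance genes were DE in the reported fit and 8 to 9 when 1 sample was left out, and with ligand 10 and 8 to 10. A test against a fold of 1.5 (glmTreat) gave 14 without and 11 with ligand. By adjusted p alone, between 39 and 46 of the 46 calls without and 43 and 47 of the 47 with ligand were kept when 1 sample was left out. The 3 libraries of lowest mapping rate were all scramble, and without them replicate 3 was the only scramble -PDGF-AA sample. Changes in calls without ligand are therefore not listed for that fit. With ligand, *Epha4* lost its call by adjusted p in it. Upon PDGF-AA in scramble cells, 5 guidance genes passed adjusted p in the reported fit, 9 without the filter, 3 with only the conditions compared, and 2 to 6 when 1 sample was left out. The count was 2 without scramble -PDGF-AA replicate 2, shSrsf3 -PDGF-AA replicate 1, or scramble +PDGF-AA replicate 1 or 3, and 3 without scramble -PDGF-AA replicate 1 or shSrsf3 -PDGF-AA replicate 2. In shSrsf3 cells the count was 1 in the reported fit, 2 with DESeq2, 4 without the filter, and 0 to 1 when 1 sample was left out, with 0 without shSrsf3 -PDGF-AA replicate 1 or 2 or shSrsf3 +PDGF-AA replicate 1 or 3. Counts under the alternatives, here and elsewhere, were not set beside shares over all genes, so shifts of guidance genes and of all genes cannot be told apart. The cause of these shifts was not tested. Between the lines, the sign of the change differed only for *Sema4a* with ligand (5 alternatives) and *Unc5d* without (2 alternatives), which passed in no fit and had low counts. Upon PDGF-AA, signs were followed only for the 5 guidance genes past adjusted p, and these kept them.

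The samples of different conditions share only replicate numbers. Of 18 same-numbered pairs, 2 had deviations from the condition means that correlated above 0.1 (range -0.142 to 0.201), and 5 of 12 samples correlated best with their own number. With a replicate block, 9 guidance genes were DE in each comparison between the lines, 47 without and 48 with ligand passed adjusted p alone, and 4 and 1 passed upon PDGF-AA. At equal depth *Robo2* without and *Sema6d* with ligand were no longer DE.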
